A study of Mus musculus with 10 samples.

Results

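The genes described here are 10 regulators of actin monomers and of filament turnover: the cofilins Cfl1, Cfl2 and Dstn, their cofactor Wdr1, the profilins Pfn1 and Pfn2, the thymosins Tmsb4x and Tmsb10, and the cyclase-associated proteins Cap1 and Cap2. They are the rows of the deposited count table that carry these 10 gene names, of 23337 genes in the table. The rule for choosing them contains no measured value, but they were chosen with earlier results of these data known. Poly(A) RNA was read from heart muscle cells (cardiomyocytes) of mice with a floxed Actn2 gene, which codes for alpha-actinin-2, the protein that anchors actin filaments in the Z-disc. The knockout group, labelled Actn2-FF, has both alleles floxed, and the heterozygote group, labelled Actn2-F+, has 1 floxed and 1 normal allele, with 5 animals in each. Every animal of both groups received AAV9-cTNT-Cre on postnatal day 1 and gave cells on postnatal day 14. The controls therefore also carry the Cre virus and can lose 1 allele of Actn2. The virus drives Cre from the cardiac troponin T promoter, so recombination is directed to cardiomyocytes, and cells were freed by collagenase perfusion and sorted by fluorescence.

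Actin shuttles between filaments and a pool of free monomers. Cofilins cut and disassemble old filaments, Wdr1 (AIP1) speeds this up, cyclase-associated proteins strip cofilin from monomers and recharge them with ATP, profilins carry ATP-actin to growing ends, and thymosins hold monomers in reserve. In striated muscle Cfl2 and Cap2 are the paralogs known from the sarcomere. Free monomers also bind the MRTF coactivators and keep them away from the transcription factor SRF, which reads CArG boxes in the promoters of many cytoskeletal genes.

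Cap2 was the member whose level differed between the groups, so its promoter is shown beside that of its paralog Cap1, with the 50 transcribed bases from the annotated start in capitals and the 250 bases before it in lower case. The sequences and starts are those of RefSeq on GRCm38.p6, the assembly also called mm10. The Cap2 window is chr13:46501653-46501952 on the plus strand, and its start is that of the count table. The Cap1 window is chr4:122886027-122886326 on the minus strand, and its start lies 195 bases upstream of the one in the count table.
Cap2 promoter: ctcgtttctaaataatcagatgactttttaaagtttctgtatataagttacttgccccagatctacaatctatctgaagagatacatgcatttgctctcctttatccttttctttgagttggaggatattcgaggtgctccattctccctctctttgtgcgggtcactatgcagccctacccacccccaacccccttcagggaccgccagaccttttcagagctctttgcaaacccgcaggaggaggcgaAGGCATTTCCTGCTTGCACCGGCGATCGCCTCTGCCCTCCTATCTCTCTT
Cap1 promoter: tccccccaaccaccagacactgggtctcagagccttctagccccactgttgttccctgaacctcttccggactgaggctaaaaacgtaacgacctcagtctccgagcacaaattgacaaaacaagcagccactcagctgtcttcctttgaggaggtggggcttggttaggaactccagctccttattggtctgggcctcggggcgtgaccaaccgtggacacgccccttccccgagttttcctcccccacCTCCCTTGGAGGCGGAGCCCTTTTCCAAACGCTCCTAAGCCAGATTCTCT
The Cap2 window had 48.3% G and C and 9 CpG, and the Cap1 window 57.0% and 11 CpG, against medians of 52.7% and 7 CpG over 32851 promoters.

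All 10 members matched RefSeq promoters, 12 windows of 300 bases in all. The CArG box, a motif of 10 bases whose reverse complement is again a CArG box, was in the windows of 0 of the 10 members and in 1.81% of all 27025 genes. A search that allowed 1 mismatch, chosen after the exact search had found none, matched 3 members, against 22.5% of all genes. These matches are printed in capitals within their surroundings, since SRF sites are what links this pathway to transcription. They lie at chr19:5490280-5490309 on the plus strand, chr2:143915215-143915244 and chr2:143915361-143915380 on the plus strand, and chr5:38561733-38561762 on the minus strand.
Cfl1: tggctcagagCGTTTTTTGGtccattgcac
Dstn, before the start: gtggcgacttCCATGTATGGgcaaaggccg
Dstn, after the start: catgcactccCCTTAACTGG
Wdr1: gagcgcttgaCTATATATGGtcaaagctgg
The Cap2 window held neither an exact CArG box nor one with 1 mismatch, and a match or its absence describes the letters of these windows only.

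The libraries held 8086656 to 25237696 counts assigned to genes. Actn2 itself had 3366, 3454, 3474, 2930 and 2677 normalised counts (CPM, counts scaled to a common library total) in heterozygotes 1 to 5 and 1286, 1249.9, 1145, 1182 and 1220 CPM in knockouts 1 to 5. Every knockout was below every heterozygote, and the log2 fold change was -1.39 (SE 0.0910, adjusted p = 3.48e-07, edgeR quasi-likelihood test with Benjamini-Hochberg adjustment, as for all adjusted p-values of single genes below). The 12 cardiomyocyte markers summed to 111937 to 137872 CPM in the heterozygotes and 110682 to 137601 CPM in the knockouts, so the labelled cell type carried its defining genes in all samples. Among them Tnni3 and Mybpc3 were called, 1 higher and 1 lower (16.7% of the list, against 18.9% of all tested genes). Markers of other cells were present too. The 14 endothelial markers summed to 840.4 to 1520.2 CPM in the heterozygotes, highest in heterozygote 4, and to 552 to 997 CPM in the knockouts, with 2 of 14 called lower (Egfl7 and Cldn5) and none at 0 in all samples. The 12 leukocyte markers summed to 16.8 to 46.6 CPM in the heterozygotes, highest in heterozygote 3, and to 11.1 to 14.1 CPM in the knockouts, without overlap, and 1 of the 6 tested was called lower (Csf1r). The 12 fibroblast markers summed to 411 to 625 and 406 to 753 CPM. Of 10 mural cell markers 1 was higher (Cspg4) and 1 lower (Tagln), and the globin genes could not be read, since each shares nearly all its exon bases with a partner gene and reads overlapping several genes were omitted. In bulk RNA a smaller number of cells of some type and less RNA per cell cannot be told apart.

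Across the table, edgeR called 2241 of 11870 tested genes (18.9%), of which 1216 were higher in the knockout (10.2%) and 1025 lower (8.64%). All 10 members passed the low-count filter, and 1 of 10, Cap2, was called. That is 10% of the members, under the background, and their median log2 fold change of 0.05 lay beside 0.0023 for all tested genes. For the other 9 members the 95% intervals of the fold change contained no change. Those intervals were narrow for Cfl1, Dstn, Pfn1 and Wdr1, which reached at most 0.30 on the log2 scale in either direction, and wide for Tmsb4x, Tmsb10 and Cap1.

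**Figure D1:**
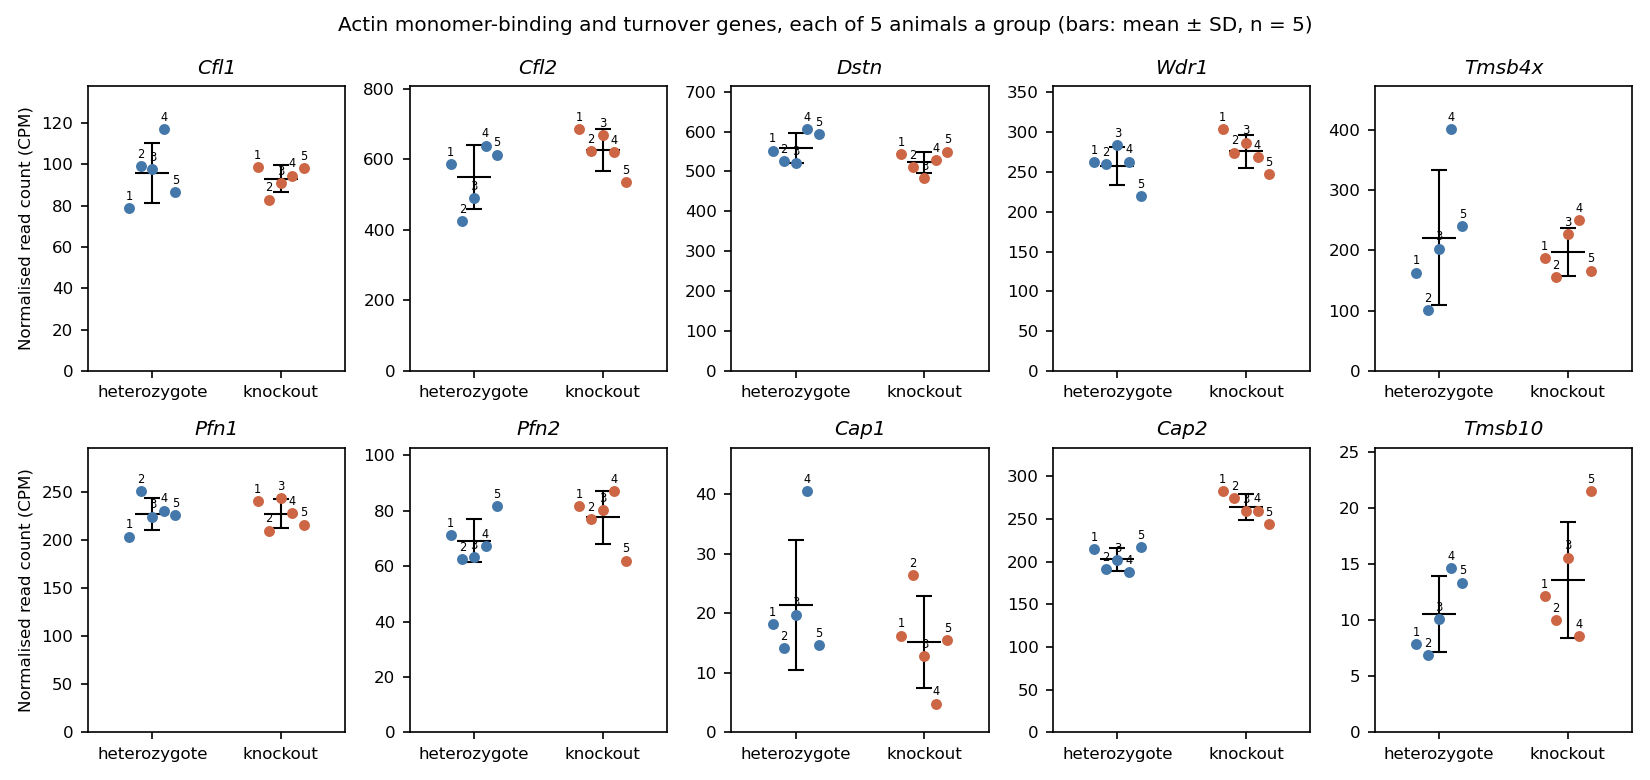
Normalised read counts (CPM, linear axes from 0) of the 10 members in heterozygotes 1 to 5 (blue) and knockouts 1 to 5 (orange), numbered, with the mean and SD of each group as bars. The groups are separate for Cap2 alone, and heterozygote 4 stands above the other heterozygotes for Tmsb4x (400.2 CPM) and Cap1 (40.5 CPM).

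Levels were also taken per kilobase of exon length, which allows a rough comparison between genes. Tmsb4x, Dstn and Pfn1 were then the most abundant members in the heterozygotes, at 330 ± 168, 294 ± 20.05 and 261 ± 19.5 CPM per kb (SD, n = 5). They were followed by Cfl2 at 187 ± 30.9, Wdr1 at 89.4 ± 8.10, Cfl1 at 80.9 ± 12.2, Cap2 at 55.4 ± 3.67 and Pfn2 at 34.2 ± 3.86 CPM per kb. Tmsb10 (11.2 ± 3.58) and Cap1 (8.96 ± 4.56 CPM per kb) were the lowest. Not all neighbours in this order could be parted: Tmsb4x was above Dstn in 5 of 10 samples, while Dstn was above Pfn1, and Tmsb10 above Cap1, in 8 of 10. Pfn1 was above Cfl2, Cfl2 above Wdr1, Cap2 above Pfn2 and Pfn2 above Tmsb10 in 10 of 10 samples. Within the families, mean levels of Cap2 exceeded those of Cap1, Cfl2 exceeded Cfl1 but not Dstn, and Pfn1 exceeded Pfn2.

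Of the cyclase-associated proteins, Cap2 was higher in the knockout and Cap1 was not called. Cap2, the paralog of striated muscle and brain, lies at chr13:46501903-46650281 (mm10), on the chromosome of Actn2 but 34.2 Mb from it, and none of its exon bases belong to another gene in the table. It was measured at 215, 192, 202, 188 and 217 CPM in heterozygotes 1 to 5 and at 283, 275, 259.3, 259.95 and 244 CPM in knockouts 1 to 5. The lowest knockout was above the highest heterozygote, a separation shown upward by 8.41% of all tested genes. Cap2 rose 1.30-fold (95% interval 1.151 to 1.475), from 203 ± 13.4 to 264 ± 15.1 CPM (SD, n = 5), with an estimated log2 fold change of 0.38 (SE 0.0835, adjusted p = 0.00561). It also varied little within the groups, with a coefficient of variation of 6.61% in the heterozygotes and 5.73% in the knockouts. The median of 9745 genes averaging 5 CPM or more was 15.7% and 11.9%. These genes were not matched to Cap2 in level, and counting noise is larger in those with fewer counts. The rise kept its direction in all alternative fits. Its call was lost with the mean log2 CPM of the endothelial markers as a covariate (log2 fold change 0.35, adjusted p = 0.0591). The call was also lost with that of the 6 tested leukocyte markers (0.33, adjusted p = 0.114), and both scores differ between the groups. Without heterozygotes 3 and 4, which had the most leukocyte and endothelial marker RNA, the log2 fold change of Cap2 was 0.34 (adjusted p = 0.0299).

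Cap1, the paralog of non-muscle cells, lies at chr4:122859228-122885881. It had 18.2, 14.1, 19.7, 40.5 and 14.7 CPM in heterozygotes 1 to 5 and 16.2, 26.4, 12.8, 4.82 and 15.5 CPM in knockouts 1 to 5. The groups overlapped, with heterozygote 4 the highest sample and knockout 4 the lowest, at 47 counts. Its log2 fold change was -0.49 with an interval of -1.26 to 0.28 (adjusted p = 0.383), which spans fold changes from 0.417 to 1.22. Single animals set its size: it was -0.13 without heterozygote 4, -0.27 without knockout 4 and -0.79 without knockout 2, and -0.07 with the endothelial covariate. The 2 genes together, per kilobase, summed to 64.4 ± 3.83 CPM in the heterozygotes and 78.5 ± 6.18 CPM in the knockouts.

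The cofilin family, which severs filaments, did not pass the test in any of its members. Cfl2, the cofilin of mature striated muscle (chr12:54858819-54862877), had 587, 424, 489, 639 and 613 CPM in heterozygotes 1 to 5 and 685, 624, 669, 620 and 535 CPM in knockouts 1 to 5. The groups overlapped, though heterozygotes 2 and 3 were below all knockouts. The log2 fold change was 0.19 (SE 0.117, interval -0.06 to 0.44, adjusted p = 0.297). Dstn, which codes for the actin-depolymerising factor destrin (chr2:143915331-143943324), ran from 521 to 605 CPM in the heterozygotes and from 483 to 550 CPM in the knockouts. Its estimate was -0.10 (interval -0.27 to 0.08, adjusted p = 0.443). Cfl1, the non-muscle cofilin (chr19:5490455-5494031), ran from 78.8 to 117 CPM and from 82.8 to 98.4 CPM, with an estimate of -0.04 (interval -0.27 to 0.19, adjusted p = 0.833). The Cfl1 maximum was heterozygote 4, and without it the estimate was 0.04. Of the 50-base windows of Cfl1 transcripts, 7.29% occur in 4 genes elsewhere, 3 of them pseudogenes, so some of its reads can be lost or shared. Wdr1, which helps cofilin dismantle filaments (chr5:38526813-38561595), had 262, 259.95, 283, 263 and 219 CPM against 303, 274, 287, 268 and 247 CPM. Knockout 1 was the highest and heterozygote 5 the lowest, the groups overlapped, and the estimate was 0.10 (interval -0.10 to 0.30, adjusted p = 0.496).

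Profilins feed ATP-actin to formins and other growing ends. Pfn1, the widespread form (chr11:70651847-70654650), had 203, 250.7, 224, 230.2 and 225 CPM in the heterozygotes and 240.1, 209.7, 243, 228 and 216 CPM in the knockouts. The means were 227 ± 16.9 and 227 ± 14.7 CPM, and the estimate of 0.0039 had an interval of -0.18 to 0.19, or fold changes of 0.882 to 1.14. Pfn2, a form best known from neurons (chr3:57841895-57847757), ran from 62.6 to 81.8 CPM in the heterozygotes and from 62.0 to 87.1 CPM in the knockouts, with an estimate of 0.16 (interval -0.07 to 0.40, adjusted p = 0.328). Knockouts 1 to 4 lay at or above 77.1 CPM and knockout 5 below all heterozygotes.

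Thymosins sequester monomers and keep them from polymerising. Tmsb4x (chrX:167207094-167209218) had 163, 100.4, 202, 400.2 and 239.6 CPM in heterozygotes 1 to 5 and 187, 156, 226, 250.3 and 166 CPM in knockouts 1 to 5. The heterozygotes spanned a 3.98-fold range around all knockouts, from heterozygote 2 to heterozygote 4. The estimate was -0.17 (SE 0.273, interval -0.75 to 0.42, adjusted p = 0.725), and it was 0.16 without heterozygote 4, so the direction rested on that animal. Heterozygote 4 was also the sample with the highest summed endothelial markers. With the mean log2 CPM of these markers as a covariate, the Tmsb4x estimate was 0.35 (adjusted p = 0.496). Tmsb10 (chr6:72957347-72958748), a thymosin known from fetal and proliferating cells, had 7.90, 6.88, 10.1, 14.7 and 13.4 CPM against 12.2, 10.0, 15.6, 8.62 and 21.6 CPM. Knockout 5 was the highest and heterozygote 2 the lowest, and the groups overlapped. Its estimate was 0.38 (SE 0.264, interval -0.19 to 0.94, adjusted p = 0.357), and the estimate was 0.14 without knockout 5. Its counts were 56 to 381 per sample, and 27.0% of its 50-base windows occur in 6 genes elsewhere, 4 of them pseudogenes, so its level is uncertain.

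**Figure D2:**
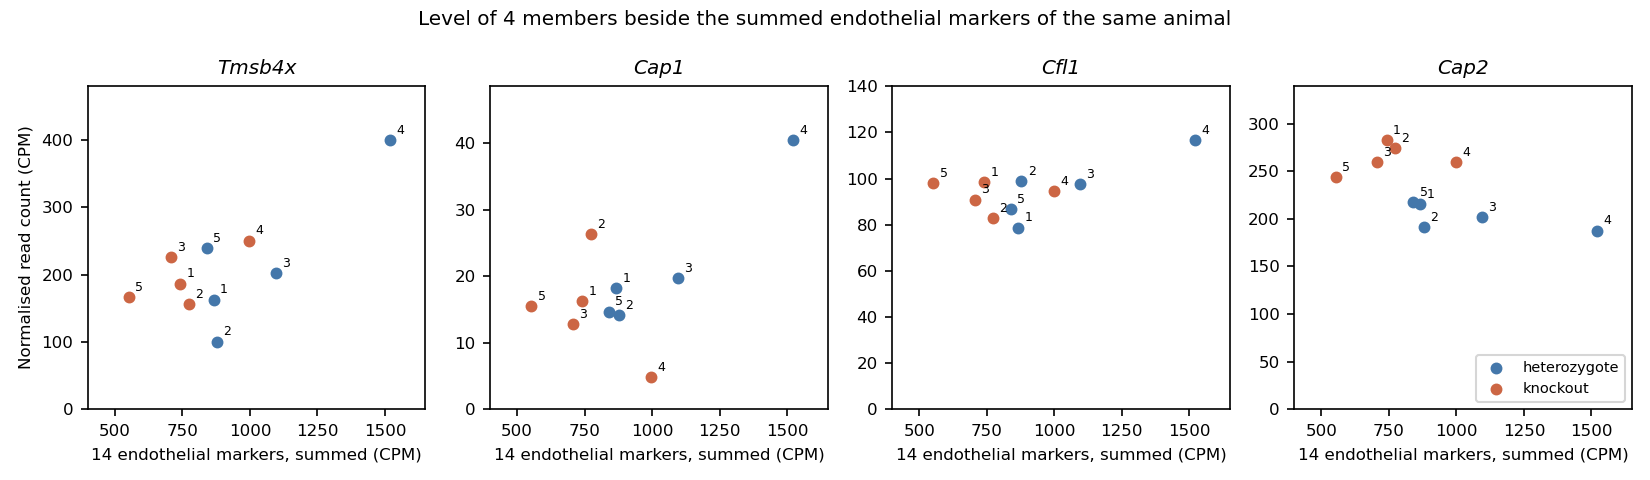
Level of Tmsb4x, Cap1, Cfl1 and Cap2 (CPM, linear vertical axes from 0) against the sum of 14 endothelial markers (CPM) in the same animal, heterozygotes in blue and knockouts in orange, numbered within each group. Heterozygote 4, at 1520.2 CPM of markers, has the highest Tmsb4x, Cap1 and Cfl1 and the lowest Cap2 of all 10 samples.

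The spread among the animals differed between members. Heterozygote 4 was the highest of its group in 6 of 10 members and heterozygote 2 the lowest in 5 of 10, while knockout 1 was the highest in 4 and knockout 5 the lowest in 4. Dstn (6.81% and 5.17%), Pfn1 (7.47% and 6.46%) and Wdr1 (9.05% and 7.60%) had low coefficients of variation in heterozygotes and knockouts, like Cap2. Cap1 (50.9% and 51.1%), Tmsb4x (50.9% and 20.4%) and Tmsb10 (31.9% and 38.1%) had high ones.

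Family totals and the make-up of each family were also compared, since paralogs share a task. The 3 cofilins summed to 563 ± 52.6 CPM per kb in the heterozygotes and 567 ± 20.6 in the knockouts, and the 2 profilins to 295 ± 18.3 and 299.7 ± 19.7 CPM per kb. The 2 thymosins summed to 341 ± 171 and 308 ± 58.4 CPM per kb, and all 10 members to 1352 ± 221 and 1349 ± 83.3 CPM per kb (SD, n = 5 each, no test). The make-up of each family was tested as the share of 1 paralog, with an exact two-sided permutation test over 252 arrangements, for which the smallest possible p is 0.00794. Cfl2 made up 33.1% ± 2.98 of the cofilins in the heterozygotes and 37.6% ± 2.96 in the knockouts, a difference of 4.46 points with an exact p of 0.0476, or 0.159 after Benjamini-Hochberg adjustment over the 4 shares. By animal, it was 35.9%, 28.6%, 31.8%, 34.3% and 35.1% in the heterozygotes and 38.7%, 38.5%, 40.8%, 37.1% and 32.8% in the knockouts, so that knockouts 1 to 4 lay above all heterozygotes and knockout 5 among them. Cap2 made up 86.3% ± 6.34 and 92.1% ± 3.61 of the cyclase-associated proteins (exact p = 0.0794, adjusted 0.159). Pfn2 made up 11.7% ± 1.59 and 12.8% ± 1.21 of the profilins (exact p = 0.254, adjusted 0.270), and Tmsb10 3.55% ± 0.766 and 4.86% ± 2.20 of the thymosins (exact p = 0.270, adjusted 0.270). No share passed the adjusted threshold, and all 4 overlapped between the groups.

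**Figure D3:**
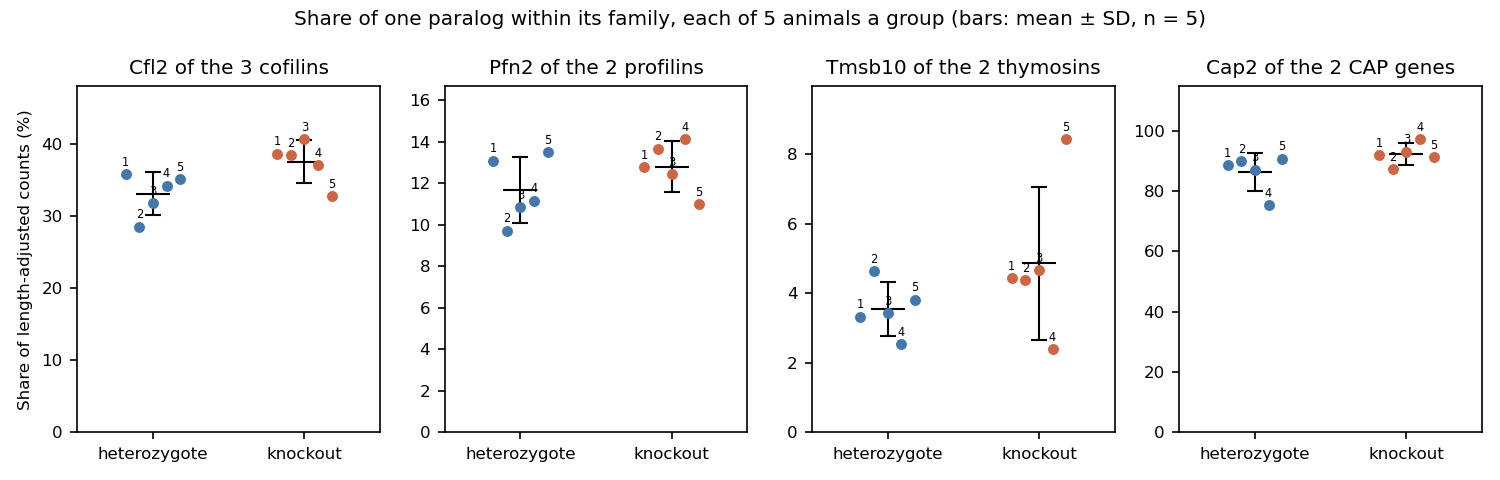
Share of 1 paralog in the length-adjusted counts of its family (percent, axes from 0) by animal, with mean and SD as bars, heterozygotes in blue and knockouts in orange. Knockouts 1 to 4 lie above all heterozygotes for Cfl2 (37.1% to 40.8% against 28.6% to 35.9%), and heterozygote 4 is low for Cap2 (75.2%).

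The genes around these members were called about as often as the table as a whole. Of their 14 calls, 13 were upward, against 54.3% of the calls in the whole table. The lists of these genes were chosen with earlier results of these data known, so the counts are a description and not a test. In 5 lists of further actin regulators, 14 of 70 tested genes were called (20%, against 18.9% of all genes), 13 higher and 1 lower, with a median log2 fold change of 0.08. Groups did not overlap for 11 of the 70, against 14.7% of all genes. Of the kinases and phosphatases that act on cofilin or its kinases, 2 of 12 rose (16.7%, against 10.2% of all tested genes called higher): Ssh2, a phosphatase that activates cofilin (175 ± 29.2 to 236 ± 22.1 CPM, log2 fold change 0.44, adjusted p = 0.0217), and Pak4, a kinase upstream of LIM kinase (0.55, adjusted p = 0.0237). Among other monomer-binding and disassembly factors, 3 of 13 rose: Gmfb, which removes Arp2/3 branches (0.46, adjusted p = 0.0434), and the actin oxidases Mical1 (0.43, adjusted p = 0.0445) and Mical2 (0.43, adjusted p = 0.0277). Among severing and capping genes, 2 of 10 rose: Scin, a gelsolin relative that severs filaments (5.62 ± 1.39 to 11.6 ± 2.99 CPM, 1.04, adjusted p = 0.00386), and Svil, a membrane-linked relative of villin (0.59, adjusted p = 0.00258).

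Of the Arp2/3 complex and its regulators, which build branched filaments, 3 of 15 rose, and 20% of the list was called in either direction, against 18.9% of all tested genes. The cortactin gene Cttn, whose product stabilises branches, had 97.1 to 102 CPM in the heterozygotes and 137 to 172 CPM in the knockouts (log2 fold change 0.63, adjusted p = 0.000164), and the Arp2/3 subunits Actr3 (0.32, adjusted p = 0.0170) and Actr2 (0.34, adjusted p = 0.0438) rose less. Of the formins, other linear nucleators and Ena/VASP proteins, partners of profilin, 3 of 17 rose and 1 fell, 23.5% of the list. Enah, an Ena/VASP protein, ran from 18.1 to 22.3 CPM in the heterozygotes and from 36.4 to 53.0 CPM in the knockouts (1.09, adjusted p = 2.71e-05). The formin genes Daam1, from 67.4 ± 8.99 to 119 ± 10.6 CPM (0.82, adjusted p = 0.000112), and Daam2 (0.81, adjusted p = 0.00579) also rose, and Fmn1 fell by 0.89 (adjusted p = 0.0241). The profilins themselves were not called, as given above.

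**Figure D4:**
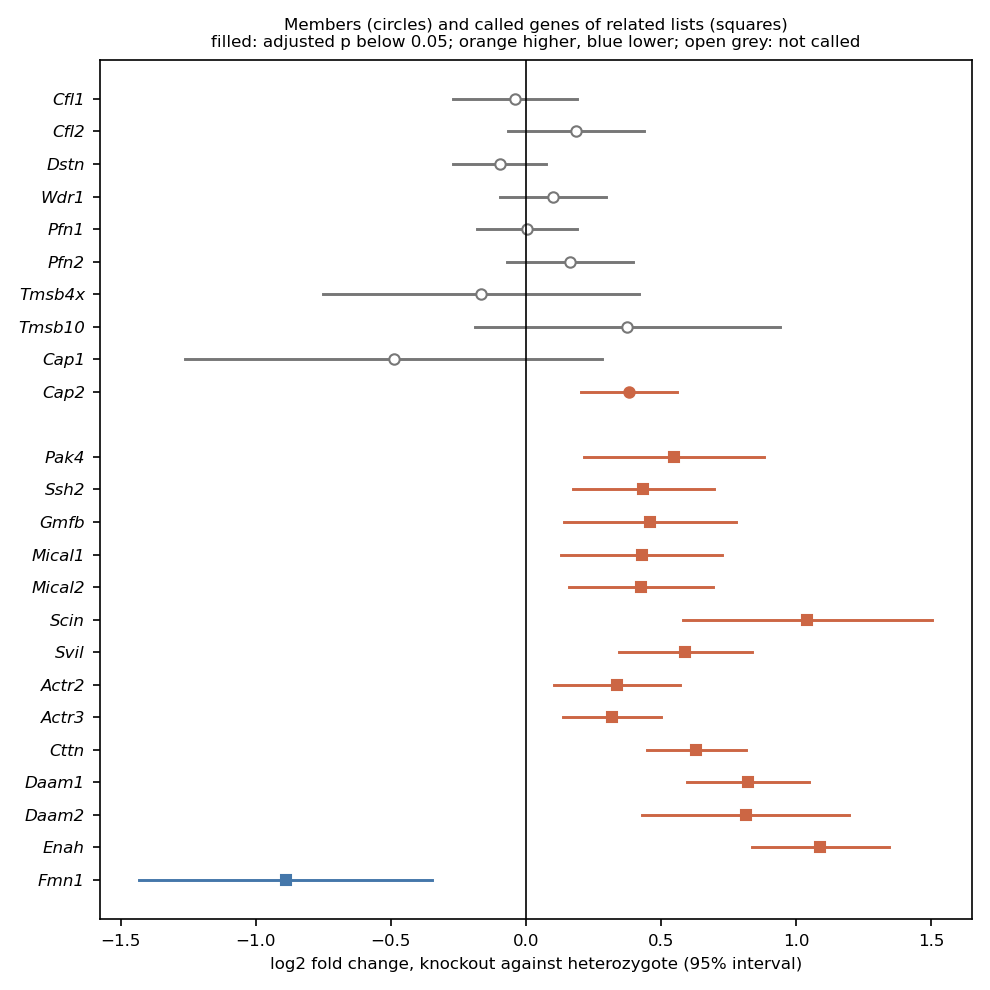
Log2 fold change, knockout against heterozygote, with 95% intervals, for the 10 members (circles) and the 14 called genes of the 5 lists of further actin regulators (squares); filled orange is higher, filled blue lower and open grey not called. The list genes are shown because they were called, and Cap2 (0.38) is the only filled circle.

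The calls in these lists were not equally firm. Cttn, Daam1 and Enah kept theirs in all alternative fits. With the leukocyte covariate Scin lost its call at a log2 fold change of 0.76 (adjusted p = 0.148) and Daam2 at 0.85 (0.0685). With the endothelial and leukocyte covariates in turn, Svil lost its call at 0.44 and 0.55 (adjusted p = 0.0572 and 0.0558) and Actr3 at 0.30 and 0.20 (0.113 and 0.354). Ssh2 (0.45 and 0.47), Pak4 (0.52 and 0.60), Mical2 (0.37 and 0.54), Gmfb (0.51 and 0.41), Mical1 (0.36 and 0.29) and Actr2 (0.42 and 0.28) lost theirs with both covariates as well, and Fmn1 with the endothelial one (-0.89), so that several of these calls went while the estimate kept its size. Actr3, Pak4 and Mical1 also lost their calls without heterozygotes 3 and 4 (adjusted p = 0.0649, 0.0929 and 0.159). Actr2 and Mical1 lost theirs with upper-quartile scaling, no filter, the replicate block and the Y-linked covariate (adjusted p = 0.0512 to 0.0674 and 0.0518 to 0.0712), Actr2 also with RLE scaling (0.0535), and Gmfb with upper-quartile scaling (0.0576). Single animals mattered too. The call of Ssh2 was lost without knockout 2 (adjusted p = 0.0604), that of Pak4 without heterozygote 1, knockout 3 or knockout 4 (0.0583 to 0.0650), that of Mical2 without heterozygotes 1 or 5 or knockouts 2 or 5 (0.0520 to 0.0773), and that of Fmn1 without heterozygotes 1 or 5 or knockouts 1, 3 or 5 (0.05001 to 0.0660). Gmfb lost its call without heterozygotes 1 or 3 or any knockout (0.0559 to 0.0954), Actr2 without heterozygotes 1, 2 or 3 or knockouts 1 to 4 (0.0597 to 0.0979), and Mical1 without heterozygotes 1, 3, 4 or 5 or knockouts 3, 4 or 5 (0.0654 to 0.123). The number of calls in the 5 lists was 8 without heterozygote 1 and 9 without knockout 3.

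Of the 10 genes of actin and of its transcriptional sensors, 3 were called higher and 2 lower. That is 50% of the list, against 18.9% of all tested genes. This list too was chosen with earlier results of these data known, so the count is a description. Of the 6 actin genes, Actc1, the main cardiac isoform, had 25547 ± 3204 CPM in the heterozygotes and 24804 ± 2649 CPM in the knockouts (log2 fold change -0.04, interval -0.26 to 0.17, adjusted p = 0.818). Of the cytoplasmic isoforms, Actg1 was lower in every knockout (115 ± 19.9 to 74.1 ± 10.3 CPM, -0.63, adjusted p = 0.00337), while Actb was not called (-0.18, interval -0.49 to 0.14, adjusted p = 0.442). The difference between Actg1 and Actb was not tested, and the Actg1 call was lost with the leukocyte covariate (-0.37, adjusted p = 0.166). Of the 50-base windows, 36.3% of those of Actg1 and 9.12% of those of Actb occur in genes elsewhere. Acta2, smooth muscle actin, fell by 1.82 (714 ± 135 to 202 ± 42.6 CPM, adjusted p = 3.98e-06). The 10 mural cell markers include smooth muscle genes, but also the desmin gene Des, which cardiomyocytes express too, so their sum does not measure mural cells alone. They summed to 2717 to 4093 CPM in the heterozygotes and 3106 to 4393 CPM in the knockouts. Their mean log2 CPM of 5.35 and 5.33 is low beside these sums, so the sums rest on the most abundant markers. The median log2 fold change of the markers was -0.33, and the smooth muscle gene Tagln was called lower. The part of mural cells in the actin changes was not tested. Acta1, skeletal actin, was called higher (1.78, adjusted p = 0.0429) with overlapping groups, 34.2 to 332 CPM against 160.1 to 1200.4 CPM. That call was lost without heterozygotes 1, 3, 4 or 5 or knockouts 1, 2 or 3 (adjusted p = 0.0525 to 0.127), without heterozygotes 3 and 4 (0.106), and with the endothelial (0.295), leukocyte (0.155) and Y-linked (0.0888) covariates. Actg2 stayed at or under 2.46 CPM and was not called.

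Of the coactivators that sense free monomers, Mkl1 (MRTF-A) had 6.72 ± 1.35 and 6.81 ± 0.546 CPM (log2 fold change 0.02, interval -0.34 to 0.39, adjusted p = 0.941). Mkl2 (MRTF-B) rose from 27.7 ± 1.63 to 35.9 ± 3.59 CPM (0.37, adjusted p = 0.0162), and every knockout was above every heterozygote. Myocd, the coactivator that is not held by free actin, rose from 142 ± 22.1 to 242 ± 75.2 CPM (0.77, adjusted p = 0.00644), also without overlap. Srf itself had 88.0 ± 13.9 and 72.7 ± 7.53 CPM and was not called (-0.27, interval -0.52 to -0.03, adjusted p = 0.117). The Mkl2 call was lost with the endothelial (log2 fold change 0.39, adjusted p = 0.0757) and leukocyte (0.41, adjusted p = 0.114) covariates, at estimates no smaller than without them, and that of Myocd with the endothelial one (0.70, adjusted p = 0.0710).

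The patterns most like that of Cap2, measured as the root mean square difference of centred log2 CPM over the 10 samples among 8359 genes, were those of Asph and Plekha1. Asph, which codes for aspartate beta-hydroxylase and for junctional proteins of the sarcoplasmic reticulum, differed by 0.0523 and ran from 434 to 524 CPM in the heterozygotes and from 607 to 712 CPM in the knockouts. Plekha1, a phosphoinositide-binding protein gene, differed by 0.0539 and ran from 94.3 to 109.6 CPM and from 120.2 to 138 CPM. Both had every knockout above every heterozygote, which follows from their choice by likeness to Cap2 over the same samples and is given as a description.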

How the data were processed

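Per the submitters' processing notes, reads were processed with CASAVA 1.8, STAR 2.5.3a and featureCounts of Subread 1.5.2 on mm10. Per the file headers, the authors' counts are whole reads per gene from featureCounts 1.5.1 with 4 threads and a UCSC mm10 annotation archive of 2012, run on alignments that carry another aligner's default file name, so the aligner is uncertain. The defaults of that program ignore strand and omit reads that map to several places or overlap several genes. The deposited table holds 14 count columns, of which 10 matched the samples by name and 4 were not used. The series text speaks of biological replicates, 5 in each group.

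Genes passing filterByExpr (minimum count 10, total 15) were scaled by TMM and compared with edgeR 4.0.16 (R 4.3.3, quasi-likelihood F test, no covariates) over all 10 samples, with Benjamini-Hochberg adjustment over all 11870 tested genes and calls at an adjusted p below 0.05. CPM are counts over TMM-scaled totals. CPM per kb divides them by the exon length of the gene, which the authors deposited in bases and which need not equal the length of 1 transcript. Log2 CPM used a prior count of 1. The 4 shares were tested by exact permutation (scipy 1.17.1). Patterns were compared among genes averaging 10 CPM or more.

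The members and gene lists were chosen with earlier results of these data known. Named are Actn2, the members, from each list up to 3 called genes per direction averaging 5 CPM or more, all tested actin and MRTF genes, and 2 genes per called member with the most similar pattern. The count for genes that act on cofilin covers the kinases and phosphatases of that list, and its other genes are not reported singly.

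In simulated data with 197 changed genes among 11766 tested, 77.4% of 2-fold and 98.9% of 4-fold changes of this comparison were recovered, 4.44% of calls were unchanged genes, and 0 calls arose with no change. The changed genes were a smaller share than the 18.9% called in the data. Changes below 2-fold, such as the 1.30-fold rise of Cap2, were not simulated, so the power for them is not known from it. Replicates differed by 10.8 to 37.5 chi-square units per degree of freedom in all 20 pairs, so none was a copy of another. Alternatives were RLE, upper-quartile and library-total scaling, no filter, a 5 CPM filter, a replicate block, DESeq2 1.42.0, voom of limma 3.58.1 with sample weights, endothelial, leukocyte and Y-linked covariates, and leaving out each animal. Each covariate was the mean log2 CPM of the genes of its list that passed the low-count filter. Leaving out heterozygotes 3 and 4 together was added after seeing the data. Promoters came from RefSeq, and transcript windows were compared over GENCODE transcripts.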

Additional observations from a re-analysis of the deposited data

Results flagged for a closer look

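Among 82 groups of 5 values of the members, named genes and shares, 3 had a highest or lowest sample whose gap to its neighbour exceeded Dixon's limit for 5 values, and chance gives about 4. The share of Cap2 in the cyclase-associated proteins was 75.2% in heterozygote 4, below the next heterozygote at 87.0%; that animal had the highest Cap1 level and the most endothelial marker RNA, whose part in the share was not tested. Actg1 in heterozygote 3 was at 7.22 log2 CPM, above the next at 6.79, and that library had the most leukocyte marker RNA. Acta2 in knockout 5 was at 8.10 log2 CPM, above the next knockout at 7.60 and below all heterozygotes.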

How the results depend on the processing

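The number of members called was 1 in all alternatives but the covariates for endothelial and leukocyte markers, each with 0. Genes called across the table fell to 1303 and 1042 and calls in the 5 lists to 5 and 4 with these covariates. Leaving out 1 animal gave 1 member, 1699 to 2258 genes and 8 to 16 list genes. Of the calls, 54.3% were higher, but 48.2% with upper-quartile scaling and 68.9% with scaling by library totals alone, the last of which shifted the median log2 fold change of all genes to 0.08. Whether the replicate numbers pair the samples was not settled. Correlations of deviations by number were -0.06 to 0.19, and numbers 4 and 5 were best matched by their own, but numbers 1 to 3 were not. With a replicate block in edgeR 2182 genes and 12 list genes were called, and Cap2 had an adjusted p of 0.0173. For the 4 shares the block meant another test, exact sign flips over the 5 numbers, with adjusted p-values of 0.333 to 0.375. With 5 pairs that test cannot reach a p below 0.05, so it cannot decide on the shares. Signs turned only for genes called in no setting. The log2 fold change of Cfl1 was 0.0345 with library totals, 0.0155 with voom, 0.0925 and 0.0990 with the endothelial and leukocyte covariates and 0.0781 without heterozygotes 3 and 4, and -0.11 to 0.0393 leaving out 1 animal. That of Tmsb4x was 0.353, 0.0420 and 0.230 with those covariates and without those animals, and -0.35 to 0.16 leaving out 1. Pfn1 gave -0.0085 with RLE, -0.0244 with upper quartile, -0.0016 at a mean of 5 CPM, -0.0081 with DESeq2 and -0.0059 with the Y-linked covariate, and -0.0324 to 0.0448 leaving out 1. Actb gave 0.0751 and 0.129 with the endothelial and leukocyte covariates, Actc1 0.0384 with library totals and 0.0108 with voom (-0.10 to 0.0315 leaving out 1), and Mkl1 -0.0033 with upper quartile and -0.0128 with the Y-linked covariate (-0.0423 to 0.12 leaving out 1). The cause of these changes was not tested.

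The covariates differ between the groups, so a call lost with them cannot be told apart from a loss of power. Cap1, at 47 to 433 counts, and Tmsb10, at 56 to 381, are limited by depth and by their spread between animals. PCR copies are not independent molecules, and sequence shared with pseudogenes can lower the counts of Tmsb10, Cfl1, Actb and Actg1. Transcript levels say nothing of protein or of the size of the actin monomer pool.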
